A study of Mus musculus with 3 samples.

Results

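The microRNA genes Mir181a-1, Mir181a-2 and Mir181b-2, and Nr6a1, the protein-coding gene whose span contains Mir181a-2 and Mir181b-2, were examined in AGO2 HITS-CLIP data of P19 cells. HITS-CLIP crosslinks RNA to a protein in the cell, pulls the protein down with an antibody and sequences the attached RNA fragments. P19 is an established mouse embryonal carcinoma line, labelled here as a stem cell line with no treatment or genetic change given. The 3 libraries formed 1 group, with no control group, and they reached the deposited data only as 4 peak lists of the whole series, 1 per peak caller: PIPE-CLIP, Pyicoclip, Piranha and CIMS. Members were the peaks with their midpoint in the mm10 RefSeq span of 1 of the 4 genes, on either strand. There were 14 such peaks of 6911 in all: 9 in the 3 microRNA genes and 5 in Nr6a1 outside them. The genes were chosen because they held peaks, so the presence of peaks in them is a description and was not tested. No list gives a value per library, so the depth of each library and the spread between libraries are unknown.

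MicroRNAs are cut from hairpin precursors, and 1 arm of the hairpin, called 5p or 3p after its place, is loaded into an Argonaute protein such as AGO2. The loaded arm finds target RNAs mainly by pairing of its seed, bases 2 to 8 counted from its 5′ end. The miR-181 family is known for its part in lymphocyte development and in differentiation. Nr6a1 encodes an orphan nuclear receptor, also called germ cell nuclear factor, which represses pluripotency genes such as Pou5f1 when stem cells differentiate. An AGO2 peak on a microRNA hairpin is usually read as the microRNA itself, and a peak on a messenger RNA as a transcript held by AGO2. Without a control group, neither reading was tested here.

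The mature 5p arms of the family are shown because most of the peaks lay on them. RefSeq (GRCm38.p6, the assembly of mm10) gives an identical miR-181a-5p for Mir181a-1 and Mir181a-2, and an identical miR-181b-5p for Mir181b-1 and Mir181b-2. Capitals mark the seed, which is shared by all 6 genes of the family and by no other mouse gene in the table.
miR-181a-5p: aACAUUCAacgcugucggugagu
miR-181b-5p: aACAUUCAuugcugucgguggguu
miR-181c-5p: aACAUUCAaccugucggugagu
miR-181d-5p: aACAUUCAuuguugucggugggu
Counted from the 5′ end of miR-181a-5p, miR-181b-5p carries the substitutions A9U, C10U and A21G and is 1 nt longer, so these arms differ only outside the seed. The reverse complement of the seed, the letters a target site would hold, is UGAAUGU.

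The 3p arms are less alike, and they are shown because the peaks of Mir181a-2 also reached its 3p arm. Each is encoded by 1 gene only, so a read of a 3p arm can in principle be placed on its own gene.
miR-181a-1-3p: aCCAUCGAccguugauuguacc
miR-181a-2-3p: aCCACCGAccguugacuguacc
miR-181b-1-3p: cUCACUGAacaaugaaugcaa
miR-181b-2-3p: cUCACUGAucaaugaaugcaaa
Between the 3p arms of Mir181a-1 and Mir181a-2 there are 2 substitutions, U5C and U16C, of which U5C lies in the seed. The seed of miR-181a-2-3p occurs in no other gene of the table, and the seed of miR-181b-2-3p is shared with Mir181b-1 only.

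The hairpins of the 3 microRNA genes are printed with both mature arms in capitals, to place the peaks that follow. All 3 genes are on the plus strand.
Mir181a-1, chr1:137966455-137966541: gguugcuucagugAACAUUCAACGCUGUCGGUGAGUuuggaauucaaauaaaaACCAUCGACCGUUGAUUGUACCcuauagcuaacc
Mir181a-2, chr2:38852735-38852810: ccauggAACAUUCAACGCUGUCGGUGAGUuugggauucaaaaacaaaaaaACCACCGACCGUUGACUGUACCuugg
Mir181b-2, chr2:38853830-38853918: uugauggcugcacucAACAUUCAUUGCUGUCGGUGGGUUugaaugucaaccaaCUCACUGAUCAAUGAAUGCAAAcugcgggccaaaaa
The genes come in pairs: Mir181b-1 starts 97 nt after the end of Mir181a-1 on chromosome 1, and 1019 nt separate Mir181a-2 from Mir181b-2 on chromosome 2.

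Every peak carries a score from the authors, whose unit is not stated, and each list starts at a score of 10. It is compared here only with scores of the same list. Piranha peaks lie on a grid of 20 nt without exception, so their ends do not mark the ends of an RNA. In Piranha and Pyicoclip the scores of a shared site were often the same number. Of 1257 Piranha peaks that overlapped a single Pyicoclip peak and no other, 74.0% had an equal score, and Piranha was higher in 0. The lists share their libraries and are not replicates of each other.

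Mir181a-1, the first of the chromosome 1 pair, had its peaks on the 5p arm and held the highest Piranha score among microRNA genes. The Piranha peak at chr1:137966461-137966480 scored 30, and the Pyicoclip peak at chr1:137966465-137966500 also scored 30. A PIPE-CLIP cluster at chr1:137966466-137966498 scored 12. The Pyicoclip and PIPE-CLIP peaks covered all 23 nt of miR-181a-5p, and the Piranha bin covered 13 nt of it with the seed. No peak of any list overlapped its 3p arm. In Piranha the score ranked 1 of 37 microRNA genes with a peak, and in Pyicoclip it ranked 2 of 50, after Mir6236, whose peaks scored 151 there. Those Mir6236 peaks were 102 to 127 nt wide, against a median of 29 nt for Pyicoclip peaks in microRNA genes. Their width is not that of a peak on a single mature arm. In PIPE-CLIP Mir181a-1 stood in the middle of the 8 microRNA genes, at rank 5 with Mir93, and below the list's median score of 14.

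Mir181b-2 carried its peaks on miR-181b-5p, again on the 5p arm alone. Piranha gave a score of 24 at chr2:38853841-38853860, and Pyicoclip gave 24 at chr2:38853842-38853872. The PIPE-CLIP cluster had the same ends as the Pyicoclip peak and scored 10, the lowest score the list holds. All 24 nt of the arm were covered in Pyicoclip and in PIPE-CLIP. The Piranha score shared rank 2 of 37 microRNA genes with 1 other gene, the Pyicoclip score shared rank 5 of 50 with 1 other gene, and the PIPE-CLIP score was the last of 8. The high ranks of Mir181a-1 and Mir181b-2 were thus found in Piranha and Pyicoclip and not in PIPE-CLIP. Both genes are on the plus strand, whereas 87.0% of all PIPE-CLIP clusters are on the minus strand. Whether that bears on their PIPE-CLIP ranks was not tested.

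In Mir181a-2 both arms held a peak, and the peak on the 3p arm had the higher deposited score. The sequence of the 5p arm is shared with Mir181a-1 and that of the 3p arm is not. How reads that fit both genes were placed is not given, so these scores do not compare the arms on equal terms. Pyicoclip had a peak of 12 at chr2:38852738-38852773, over the whole of miR-181a-5p, and a peak of 18 at chr2:38852779-38852812, over the whole of miR-181a-2-3p. The latter carries no strand in the list. Piranha had 1 peak, of 14, at chr2:38852781-38852800, which covered 16 nt of the 3p arm on the plus strand, and none on the 5p arm. PIPE-CLIP had no cluster there. A peak on each annotated arm was seen in Mir181a-2, Mir423 and Mir92b among the 50 microRNA genes with a Pyicoclip peak. Among the 37 with a Piranha peak it was seen in Mir92b. A Pyicoclip peak in overlapping microRNA genes was counted once for each gene, which gave 56 entries. The counts of genes with a peak on each arm can be too low, since 9 of these entries overlapped no annotated arm of their gene. Mir302a, for instance, had a Pyicoclip peak of 20 on its 5p arm and another, of 15, on no annotated arm. The 3p score ranked 11 of 50 microRNA genes in Pyicoclip and 14 of 37 in Piranha, in each case tied with 2 others. The 2 others in Pyicoclip overlap and hold the same peak.

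**Figure D1:**
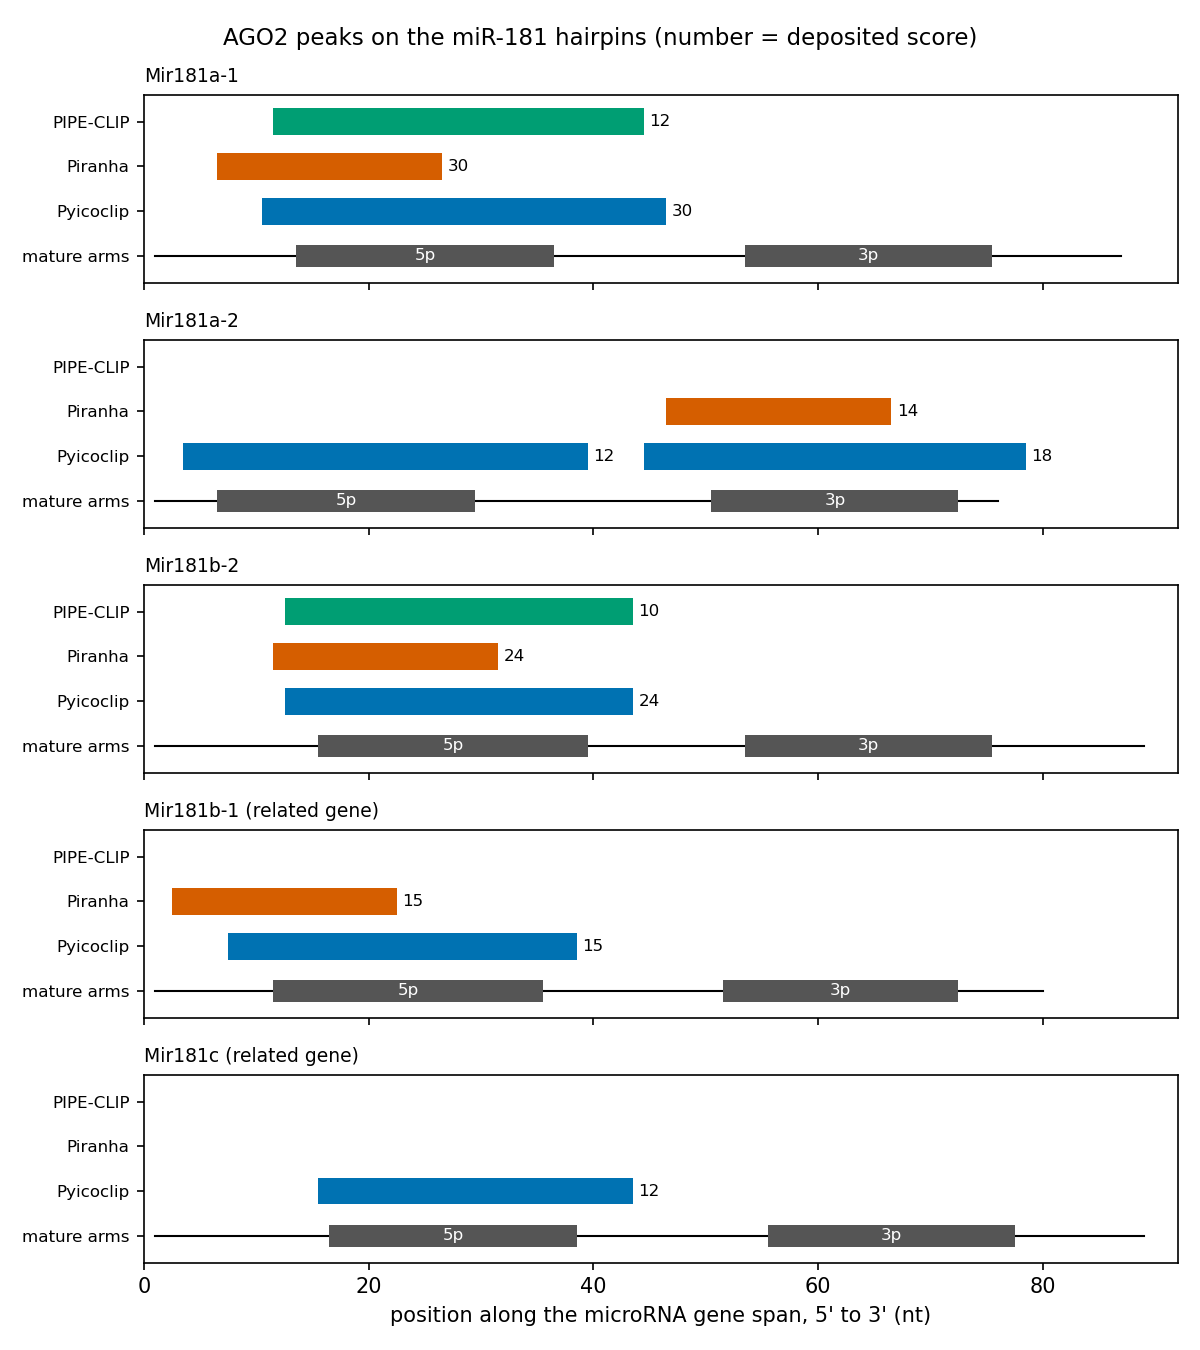
Peaks of Pyicoclip, Piranha and PIPE-CLIP (coloured bars, with the deposited score beside each) along the spans of the miR-181 genes that held a peak; the x axis is the position in nt from the 5′ end of the gene and dark boxes are the mature arms. The peaks of Mir181a-1, Mir181b-2, Mir181b-1 and Mir181c lie on the 5p arm, and only Mir181a-2 has peaks on its 3p arm, scoring 18 and 14.

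Overlapping peaks of the 3 microRNA genes merged into 4 sites, of which the 5p sites of Mir181a-1 and Mir181b-2 held 3 lists each, the 3p site of Mir181a-2 held 2 lists and its 5p site held Pyicoclip alone. CIMS, which is built on crosslink-induced mutations in reads, had no peak in any of the 4 genes. It had peaks in only 2 microRNA genes of the 1228 annotated, 0.163%. Having a peak was uncommon for a microRNA gene in the other lists too, with 3.01% in Piranha, 4.07% in Pyicoclip and 0.651% in PIPE-CLIP. The members were picked for their peaks, so their 3 of 3 in Piranha and Pyicoclip and 2 of 3 in PIPE-CLIP say nothing beyond that choice.

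The 5p arms could not be assigned to 1 gene of a pair from their sequence. Mir181a-1 and Mir181a-2 are identical over 28 nt around miR-181a-5p, made up of 1 nt before it, its 23 nt and 4 nt after it. Mir181b-1 and Mir181b-2 are identical over 26 nt, with 2 nt before the arm and none after it. A read that stays within these stretches fits both copies, and how such reads were placed is not given in the sources used here. The Pyicoclip scores on the 5p arm were 30 at Mir181a-1 against 12 at Mir181a-2, and 24 at Mir181b-2 against 15 at Mir181b-1. The copy with the higher score was therefore on chromosome 1 for miR-181a and on chromosome 2 for miR-181b. Whether the placement of shared reads contributes to these differences was not tested. The Pyicoclip peaks at both copies reached past the identical stretch on each side, by 2 nt before and 6 nt after it at both miR-181a copies. For miR-181b they passed it by 2 nt before and 3 nt after at Mir181b-1, and by 1 nt before and 4 nt after at Mir181b-2.

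Of the other 3 genes of the family, Mir181b-1 and Mir181c had peaks on the 5p arm and Mir181d had none. Mir181b-1 (chr1:137966639-137966718), which was not among the chosen genes, had a Piranha peak of 15 at chr1:137966641-137966660 and a Pyicoclip peak of 15 at chr1:137966646-137966676, both on the 5p arm. These scores lay below those of Mir181a-1 and Mir181b-2 in the same lists, while the Piranha score was above the 14 of Mir181a-2. Mir181c (chr8:84178873-84178961, minus strand) had 1 Pyicoclip peak of 12 at chr8:84178919-84178946, over all 22 nt of miR-181c-5p. Mir181d, which lies 85 nt from it, had no peak of score 10 or more in any list. In all, 5 of the 6 genes with this seed held a peak in any list, against 4.23% of all microRNA genes, and 4 of them held peaks in at least 2 lists, against 3.01%. Since 3 of the 6 were chosen for their peaks, these counts are a description. Of 216 seeds that occur in at least 2 mouse microRNA genes, 26 had a peak in at least 1 gene and 2, that of miR-181 included, had peaks in at least 5 genes. A seed of fewer than 5 genes cannot reach that number, so the 216 are no background for it. Peaks anywhere in a gene counted, on either arm, and genes with an identical 5p arm counted separately.

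**Figure D2:**
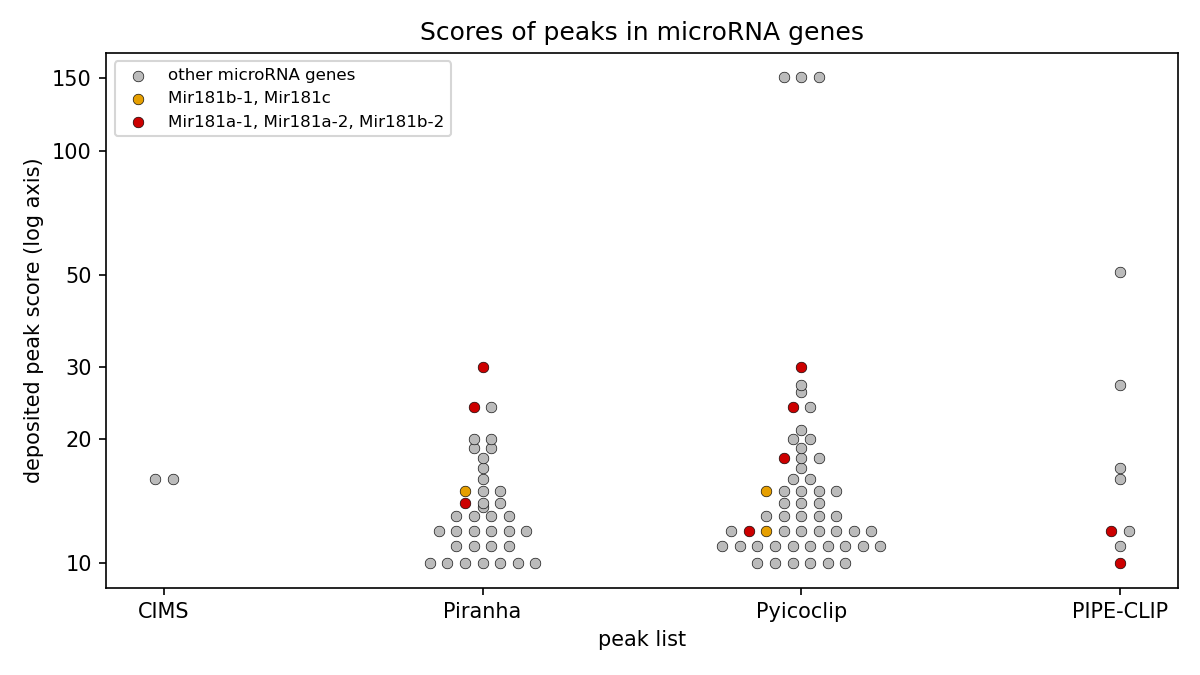
Deposited scores (log axis) of every peak in a microRNA gene, by peak list; each point is 1 peak in 1 gene, red for Mir181a-1, Mir181a-2 and Mir181b-2, orange for Mir181b-1 and Mir181c and grey for all other microRNA genes. A Pyicoclip peak in overlapping genes is drawn once for each. The red points reach 30 in Piranha and in Pyicoclip, where the 3 grey points at 151 are peaks of Mir6236, and lie at 12 and 10 in PIPE-CLIP.

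The ends of the Pyicoclip peaks relative to the mature arm varied among the members. Over 47 Pyicoclip peaks on a mature arm of any microRNA gene, the peak began a median of 2 nt before the arm (quartiles 2 to 3) and ended a median of 4 nt after it (quartiles 2 to 5). The peak of Mir181b-2 began 3 nt before and ended 4 nt after, close to these medians. Those on the 5p arms of Mir181a-1 and Mir181a-2 both began 3 nt before and ended 10 nt after, and a 3′ reach of 10 nt or more was otherwise found in 3 of the 47 peaks, at Mir16-1, Mirlet7c-2 and Mir6240. The peak on the 3p arm of Mir181a-2 reached 6 nt beyond the arm at both ends. Its 3′ end lay 2 nt past the end of the annotated hairpin. A peak is a union of reads, so its ends do not give the length of any 1 RNA, and the equal ends at Mir181a-1 and Mir181a-2 come from loci with near-identical sequence.

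**Figure D3:**
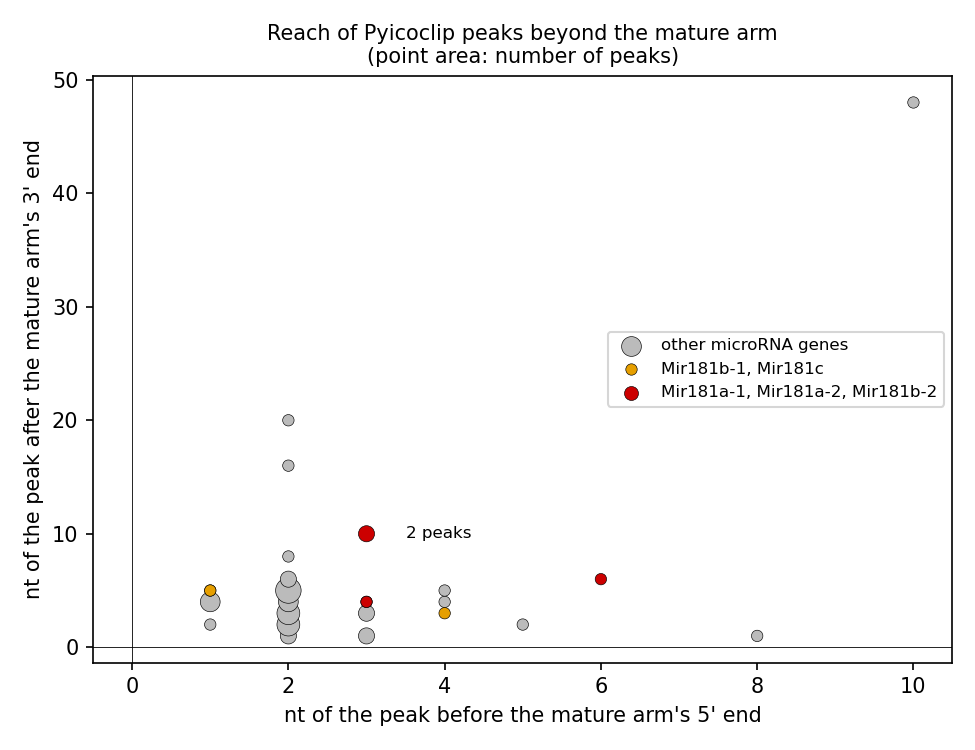
Nucleotides by which a Pyicoclip peak extends before the 5′ end (x axis) and after the 3′ end (y axis) of the mature arm it overlaps most; point area gives the number of peaks, and the 3 peaks of Mir6236 are left out because they begin 84 nt or more before the arm. Both 5p peaks of miR-181a sit at 3 and 10 nt, above most of the grey points.

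Nr6a1 has a span of 203.1 kb at chr2:38723369-38926461 and is on the minus strand. Mir181a-2 and Mir181b-2 lie within it, about 73.7 and 72.5 kb from its 5′ end, but on the plus strand, and so do not lie on the Nr6a1 transcript in the sense direction. They share strand and place with Nr6a1os, a long non-coding RNA gene at chr2:38815972-38921863. The term host gene therefore holds for the position and not for the strand. Of the 11 peaks in the Nr6a1 span, 6 lay in the microRNA genes, of which 5 were on the plus strand and 1 had no strand. The other 5 peaks were on the minus strand, that of Nr6a1.

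The 5 Nr6a1 peaks outside the microRNA genes were all PIPE-CLIP clusters, and 4 of them were grouped at the 3′ end of the gene. From the 3′ end inwards, the cluster at chr2:38723563-38723656 scored 15 and the one at chr2:38724082-38724199 scored 21. Those at chr2:38725585-38725674 and chr2:38726326-38726398 scored 11 and 18. Their midpoints lay 0.24, 0.772, 2.26 and 2.99 kb from the 3′ end of the span, past 98.5% of its length. The fifth cluster, at chr2:38917176-38917247 with a score of 12, lay 9.25 kb from the 5′ end. RefSeq gives starts for Nr6a1 at 38926461 and at 38784515, and this cluster lies between them, as do the microRNA genes. It also lies in the span of Nr6a1os, on the opposite strand. Exons and untranslated regions were not used, so it is not known which of these clusters are in exons.

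The scores placed the Nr6a1 clusters on both sides of the PIPE-CLIP median of 14, with 3 above it and 2 below. The highest, 21, was at percentile 82.2 of the list and the lowest, 11, at percentile 21.5. The widths of 72 to 118 nt were near the list's median of 85 nt. Piranha, Pyicoclip and CIMS had no peak in Nr6a1 outside the microRNA genes. Of 21900 protein-coding genes, 7.12% had a PIPE-CLIP cluster, 4.54% a Pyicoclip peak, 2.89% a Piranha peak and 0.279% a CIMS peak. At least 5 PIPE-CLIP clusters were found in 118 genes, 0.539%, a count that Nr6a1 was chosen on and that is not a result. The nearest peaks outside the span were 299 kb beyond its 3′ end, a Pyicoclip peak of 13, and 4085 kb beyond its 5′ end, a Piranha peak of 11.

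PIPE-CLIP is a list with 87.0% of its clusters on the minus strand, so the strand of the Nr6a1 clusters is also the common one in the list. Among clusters that lay in a single gene span, a protein-coding one with a known strand, 98.7% of 1887 minus-strand and 93.9% of 213 plus-strand clusters were on the strand of the gene. In the 2063 clusters on their gene's strand, the midpoint lay within 3 kb of the 3′ end of the span in 43.0%. In genes of 100 kb or more this share was 23.8% of 446 clusters. Nr6a1 had 4 of 5 clusters in that range, 1 of them at 2.99 kb, just inside the limit. The fifth also lies in the span of Nr6a1os, so the shares above, which take clusters in a single gene span, leave it out. The limit of 3 kb was not among the planned settings. The count is a description of 1 gene and was not tested.

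**Figure D4:**
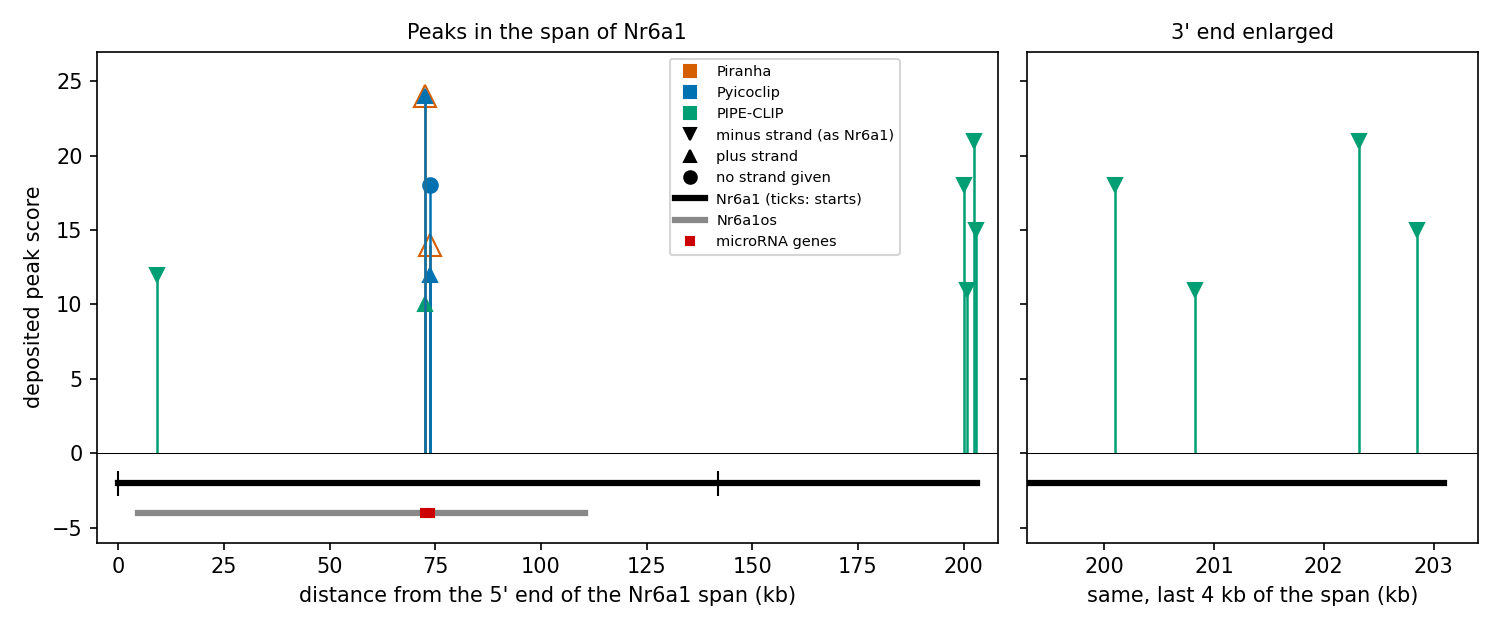
Peaks in the span of Nr6a1, as deposited score against the distance of the peak midpoint from the 5′ end of the gene (kb), with the last 4 kb enlarged on the right; colours give the list, open triangles are Piranha, and marker shape gives the strand. The 4 PIPE-CLIP clusters at the 3′ end score 11 to 21, and the plus-strand peaks near 73 kb are those of Mir181a-2 and Mir181b-2.

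By the number of peaks in each of the 4 lists, the profile of Mir181a-1 and Mir181b-2, with 1 peak each in Piranha, Pyicoclip and PIPE-CLIP, was matched exactly by Mir182 and Mir93 and by no further microRNA gene among the 52 with a peak. The profile of Mir181a-2, with 1 Piranha and 2 Pyicoclip peaks, was matched by Mir302a and Mir423. Mir101a and Mir10b, 1 peak away from each of the 3 members, were among 27 genes at that distance. The profile of Nr6a1 outside the microRNA genes, with 5 PIPE-CLIP clusters and no other peak, was matched by 15 protein-coding genes, the first by name being Arid1a, Eif4g2, Glg1, Gnas and Grm4. The likeness is the sum of absolute differences in peak number over 4 lists, which share libraries, and most genes can take only a few values.

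Of 26 genes reported elsewhere as miR-181 targets, listed from general knowledge, 9 held a peak in any list, against 9.77% of all protein-coding genes. The genes were listed with earlier results of these data known, so the counts are a description and were not tested. All 9 had a PIPE-CLIP cluster, 5 had a Pyicoclip peak, and 1 each had a Piranha and a CIMS peak. Cbx7, which encodes a subunit of Polycomb repressive complex 1, had 2 overlapping Pyicoclip peaks of 12 and a PIPE-CLIP cluster of 28 at chr15:79915844-79916072, close to the 3′ end of its span. The other 3 Cbx7 clusters scored 16, 13 and 10. Mcl1, an inhibitor of apoptosis, had 2 sites found by both lists, with Pyicoclip scores of 15 and 14 and PIPE-CLIP scores of 16 and 15. Xiap, an inhibitor of caspases, had a Pyicoclip peak of 17 at chrX:42106199-42106430 with 2 PIPE-CLIP clusters of 14 inside it. Lin28a, an RNA-binding protein gene of pluripotent cells, had peaks in all 4 lists, 12 in total, with PIPE-CLIP scores up to 144. Nlk, Prox1, Rnf2 and Atm had PIPE-CLIP clusters only, and the other 17 genes had none. No sequence under these peaks was read, so whether they hold the match to the miR-181 seed was not examined, and the list was not matched for gene length or expression.

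Of 44 nuclear receptor genes, 6 had a peak in any list, a share of 13.6% beside 9.77% of all protein-coding genes. Nr6a1 was 1 of the 6 and was chosen because it held peaks, so the share is raised by that choice. Its Piranha and Pyicoclip peaks were those of the microRNAs. Rora, which encodes a retinoid-related orphan receptor, held 2 Piranha peaks, 4 Pyicoclip peaks and 5 PIPE-CLIP clusters, all on its own strand, with scores up to 35. Nr1d2, a circadian repressor gene, had 2 Pyicoclip peaks of 10 and 16 and 3 PIPE-CLIP clusters of 33, 19 and 14. Nr4a3, an immediate early gene, had a Piranha and a Pyicoclip peak of 18 at the same site. Nr2f6 and Nr3c1 had 1 PIPE-CLIP cluster each. Of 7 genes reported as repressed by Nr6a1, Pou5f1 alone had a peak, a PIPE-CLIP cluster of 19, a share of 14.3% that is near the 9.77% of all protein-coding genes.

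Marker genes of the labelled cell type and of other cell types were also counted, beside the 9.77% of all protein-coding genes with a peak in any list. Like the gene lists above, they were drawn up with earlier results of these data known, so their counts are descriptions. Of 12 genes of pluripotent and embryonal carcinoma cells, 4 had a peak: Lin28a, Lefty1, Lin28b and Pou5f1. Of 5 neural genes 1 had a peak, a PIPE-CLIP cluster of 10 in the span of Map2 on the strand opposite to the gene, and none of 4 muscle or 5 endoderm genes had one. At that background, lists of 4 or 5 genes are too short for a count of 0 or 1 to be told apart from it. A gene without a peak is not shown to be silent, since an expressed RNA need not be recovered with AGO2. With no control group, a peak is likewise not shown to be RNA held by AGO2.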

How the data were processed

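AGO2 HITS-CLIP was measured in 3 P19 libraries. The submitters' processing notes name cutadapt, Novoalign and the build mm10. Not given in the sources used here are versions, caller settings, how reads that map to several places were handled and how the libraries were pooled. The authors deposited 4 BED lists with a score per peak (lowest 10, no stated unit; fractional in 68 Piranha peaks, none of them 20 nt wide). Positions are counted from 1.

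Peaks were assigned by midpoint to RefSeq spans (GRCm38.p6), on either strand. Gene strands came from RefSeq start and microRNA tables, and mature sequences were found for 1058 of 1228 microRNA genes. Sites were runs of peaks sharing 1 nt or more of 1 strand, and peaks without strand matched either. Ranks are within a list. Assignment was tested on simulated data. No statistical test was made, and counts stand beside the share over all genes.

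Members and gene lists were chosen with earlier results of these data known. Named genes were the members, the other miR-181 genes, genes of the lists with peaks in at least 2 peak lists, and up to 5 genes nearest in peak numbers. A gene that meets this rule is not reported here by name. Other names (Nlk, Prox1, Rnf2, Atm, Nr2f6, Nr3c1, the markers, Mir6236, Mir6240, Mir16-1, Mirlet7c-2, Mir423 and Mir92b) were added after their values were seen. Alternatives changed the assignment, the lowest score, the strand and the lists. Python 3.11.15 was used with numpy 2.4.6, pandas 2.3.3 and matplotlib 3.10.9.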

Additional observations from a re-analysis of the deposited data

How the results depend on the processing

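Of 26 alternatives, 20 left a count within 1.5 times its value and 6 did not. With a score of at least 15, the peaks in the 3 microRNA genes went from 9 to 5 and those in Nr6a1 outside them from 5 to 3. With a score of at least 20 they went to 4 and 1, and Mir181a-2 kept no peak. Without PIPE-CLIP, the reported miR-181 targets with a peak went from 9 to 5. The same setting, for the peak counts chosen after seeing the data, left 0 peaks in Nr6a1 outside the microRNA genes. All 6 changes follow from leaving out peaks. Counting any overlap, or whole peaks inside a span, gave 9 and 8 peaks in the microRNA genes and 5 in Nr6a1. Including all 6 family genes, also chosen after seeing the data, gave 12 peaks. No paired analysis was possible because no list gives values per library; for the same reason leaving out a replicate was not run. Depth is unknown, and sites scoring under 10 were not analysed here.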

Other observations

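The running numbers in the names of the PIPE-CLIP clusters rose with position in all 179 clusters of chromosome 2. Across the Nr6a1 span they ran from 114608 to 114649, which is 42 numbers, of which 6 were in the list: the 5 clusters of Nr6a1 and the one on miR-181b-5p of Mir181b-2. The other numbers were not analysed here.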
